A study of Bos taurus with 16 samples.

Results

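IRS1 and IRS2, the insulin receptor substrate genes, are 2 of the 36824 entries of a raw read count table from follicular cells of cattle (Bos taurus), and both were taken by symbol and not by their values. Cumulus cells, which enclose the oocyte, and granulosa cells, which line the wall of the follicle, came from follicles on the ovary that bore the corpus luteum (ipsilateral) or on the other ovary (contralateral). Each of the 4 groups held 4 libraries, and each library was a pool of 3 animals, so n counts pools. The series' title asks whether nearness to the corpus luteum alters the follicle. The labels give no treatment beyond the side, and no strain or age. Since the RNA came from pooled bulk cells, a lower level in a type cannot be told apart from a smaller share of the cells that hold the transcript.

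Insulin receptor substrates are docking proteins without enzyme activity of their own. The insulin receptor and the type 1 IGF receptor phosphorylate them on tyrosines, and the phosphorylated sites recruit phosphoinositide 3-kinase, which leads to AKT, and GRB2, which leads to the MAP kinases. In the follicle, insulin and insulin-like growth factors act together with follicle-stimulating hormone on the growth, glucose use and steroid synthesis of granulosa and cumulus cells.

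IRS1 was lower in cumulus than in granulosa cells on both sides, and IRS2 did not pass the test in any comparison. The mean level of IRS1 was 33.2 ± 5.05 CPM over the cumulus and 58.5 ± 9.05 CPM over the granulosa libraries (SD, 8 pools of either type), where CPM is the count per 1 M counts of a library (M, mega) after TMM scaling. For IRS2 the means were 3.67 ± 1.36 and 3.06 ± 1.21 CPM. For neither gene was a difference between the sides detected.

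Total counts ran from 10.1 to 21.9 M per library. Of the oocyte markers, BCL2L10 and H1FOO together reached 204 CPM in contralateral cumulus library 4, 18.6 CPM in contralateral cumulus library 2 and 10.8 CPM in contralateral granulosa library 3, and at most 1.38 CPM in the others. MUC16, a marker of the ovarian surface epithelium, reached 9.98 and 44.3 CPM in ipsilateral granulosa libraries 1 and 3 and 24.7 CPM in contralateral granulosa library 3, and at most 2.09 CPM elsewhere. None of the 13 granulosa and cumulus markers could be found by name, so the labelled cell types were not checked on them.

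In ipsilateral cumulus cells, IRS1 stood at 33.2, 32, 37.4 and 31.8 CPM in libraries 1 to 4. Contralateral cumulus libraries 1 to 4 held 24.6, 29.0, 40.6 and 36.6 CPM. The 4 ipsilateral values lie inside the contralateral range, which was wider, with an SD of 7.23 against 2.61 CPM. In ipsilateral granulosa cells IRS1 stood at 66.9, 48.2, 71.6 and 61.6 CPM, and in contralateral granulosa cells at 50.5, 66.2, 51.3 and 52.1 CPM. Every granulosa library lay above every cumulus library. The lowest of them, ipsilateral library 2, was 1.19-fold above the highest cumulus library, contralateral library 3. How many other entries separate the libraries in this way was not counted. Between the cell types 60.2% of the 18038 entries tested were called by edgeR, so a difference between them is not particular to IRS1. A call does not require that the libraries separate fully, so this share does not say how common such separation is.

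These levels rest on 349 to 1370 IRS1 counts per library. Counting alone would give a coefficient of variation of about 3.14 to 4.78% within a group, and the measured one was 7.76 to 22.1%, so the spread between pools, not the depth, set most of the error. The biological coefficient of variation that edgeR estimated over all 16 libraries was 0.171 for IRS1, against a trend of 0.214 for entries of the same abundance.

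**Figure D1:**
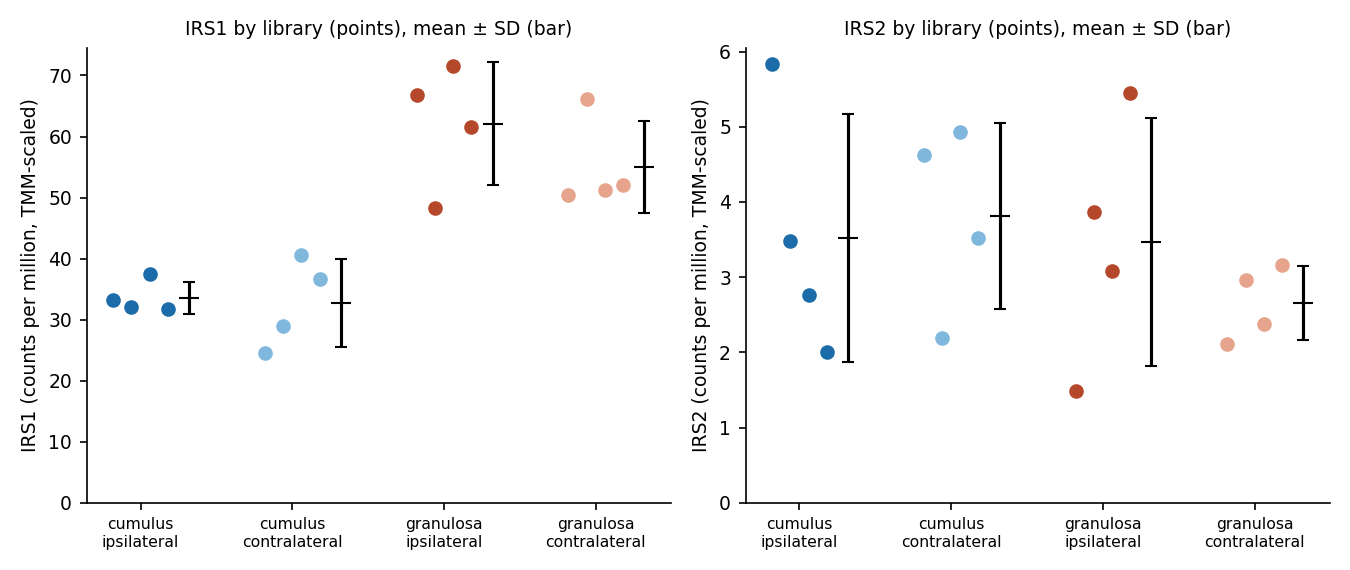
IRS1 (left) and IRS2 (right) in CPM after TMM scaling, from 0, in the 4 groups on the horizontal axis; points are libraries 1 to 4 from left to right in each group, and the bar beside them is the mean ± SD (n = 4). For IRS1 the granulosa libraries lie at 48.2 to 71.6 CPM and the cumulus libraries at 24.6 to 40.6 CPM. The IRS2 values of all groups overlap.

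By edgeR's quasi-likelihood test over 18038 entries, IRS1 had a log2 fold change of -0.82 ± 0.11 SE between cumulus and granulosa cells (adjusted p = 1.17e-05, 95% interval -1.06 to -0.58), which is a 1.76-fold lower level in cumulus cells. In this comparison 60.2% of all entries were called and 30.3% of all entries were called lower in cumulus cells, so a call here is common. The median size of the log2 fold change over all entries was 0.63. Among the 5460 entries called lower in cumulus cells the median was -0.96, and 56.4% of them lay further below 0 than IRS1. The IRS1 difference was thus near the middle of those called in its direction.

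The IRS1 difference passed on each side alone. With the 8 ipsilateral libraries the log2 fold change was -0.89 ± 0.14 SE (edgeR adjusted p = 7.48e-04), where 44.3% of all entries were called and 23.6% of all entries were called lower in cumulus cells, and with the 8 contralateral libraries -0.73 ± 0.17 (edgeR adjusted p = 0.00507), where the shares were 47.6% and 23%. Without the 3 libraries with oocyte transcripts the value over both sides was -0.84 (edgeR adjusted p = 1.93e-04), and without the 3 libraries with MUC16 it was -0.77 (edgeR adjusted p = 1.48e-04). On the contralateral side alone, leaving out the libraries with oocyte transcripts gave -0.79 (edgeR adjusted p = 0.0347) and leaving out the library with MUC16 also gave -0.79 (edgeR adjusted p = 0.00833). On the ipsilateral side alone the value without the 2 libraries with MUC16 was -0.72 (edgeR adjusted p = 0.00611). PF4, a platelet chemokine gene and the only one of 10 leukocyte markers found by name, had the direction of IRS1 between the cell types. It lay at 0 in 6 of 8 cumulus libraries, at up to 0.243 CPM in the others and at 0.449 to 3.91 CPM in granulosa libraries. PF4 was itself called, with a log2 fold change of -5.99 ± 0.81 SE between the cell types (edgeR adjusted p = 2.42e-05), where 60.2% of all entries were called. Within granulosa cells the PF4 median was 1.13 CPM ipsilaterally and 2.865 CPM contralaterally, and that of IRS1 64.26 and 51.68 CPM. No entry was called by edgeR between the sides in granulosa cells, so these medians give no order of the sides. The part of blood cells in the IRS1 difference was not tested.

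IRS2, the second adaptor, carried far fewer reads, with 20 to 121 counts per library. Ipsilateral cumulus libraries 1 to 4 held 5.83, 3.48, 2.76 and 2.01 CPM, and contralateral cumulus libraries 4.62, 2.19, 4.93 and 3.52 CPM. Ipsilateral granulosa libraries held 1.49, 3.87, 3.08 and 5.44 CPM, and contralateral granulosa libraries 2.11, 2.96, 2.38 and 3.17 CPM. All 4 groups overlapped, and the highest and the lowest of the 16 libraries were both ipsilateral, cumulus library 1 and granulosa library 1, which differed 3.91-fold.

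Counting alone would give IRS2 a coefficient of variation of 12.6 to 16.4% within a group, and the measured one was 18.6% in contralateral granulosa cells and 32.5 to 47.4% in the other groups. The 23 counts of ipsilateral granulosa library 1 correspond to 1.45 CPM before TMM scaling, with an exact Clopper-Pearson 95% interval of 0.918 to 2.17 CPM, and the 69 counts of ipsilateral cumulus library 1 to 6.03 CPM (4.70 to 7.64). Such intervals cover counting error only, since PCR copies are not independent molecules. edgeR's biological coefficient of variation for IRS2 was 0.405, against a trend of 0.517 for entries of its abundance.

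Between the cell types IRS2 had a log2 fold change of 0.26 ± 0.29 SE (edgeR adjusted p = 0.447). Its 95% interval ran from -0.35 to 0.88, and that of IRS1 from -1.06 to -0.58. Setting the 2 intervals side by side is not a test of whether the genes differ alike, for which the ratio of their counts is used below. On the ipsilateral side IRS2 had 0.01 ± 0.46 (interval -1.02 to 1.03) and on the contralateral side 0.53 ± 0.35 (interval -0.24 to 1.31). These pools do not exclude differences of IRS2 inside these intervals. Without the 3 libraries with oocyte transcripts IRS2 had 0.40 over both sides (edgeR adjusted p = 0.330) and 0.78 on the contralateral side (edgeR adjusted p = 0.169). Without the 3 libraries with MUC16 the value over both sides was -0.0023, and on the ipsilateral side it was -0.42, against 0.46 on the contralateral side, so no direction can be given for IRS2.

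**Figure D2:**
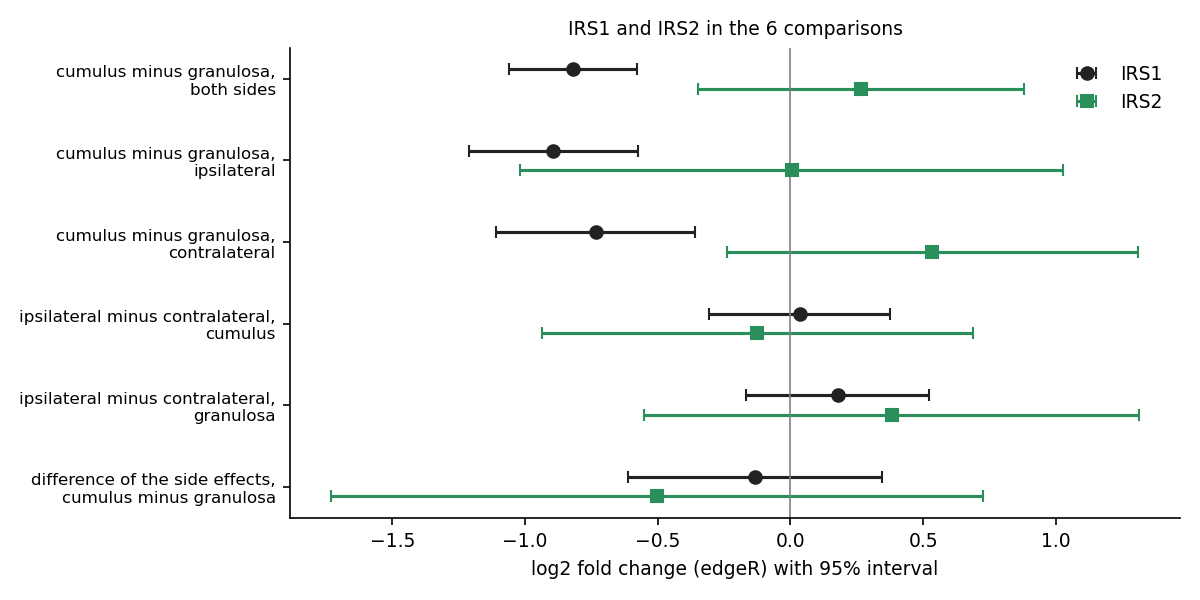
Log2 fold changes of IRS1 (circles) and IRS2 (squares) from edgeR on the horizontal axis, with 95% intervals, in the 6 comparisons listed on the vertical axis. The IRS1 intervals lie below 0 in the 3 comparisons of cumulus with granulosa cells, with log2 fold changes of -0.82, -0.89 and -0.73, and all other intervals include 0.

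The 2 adaptors were then compared with each other inside each library, as the ratio of IRS1 to IRS2 counts with 0.5 added to each. Such a ratio needs no scaling between libraries, and while transcript length affects its level, length cancels in a difference between groups. Lengths of the transcripts were not used here, so the ratio does not say how many IRS1 molecules there are for each IRS2 molecule. In ipsilateral cumulus libraries 1 to 4 the ratio was 5.66, 9.08, 13.4 and 15.6, and in contralateral cumulus libraries 5.30, 13.1, 8.19 and 10.3. Granulosa libraries had the higher ratios, with 43.9, 12.4, 23.0 and 11.3 on the ipsilateral and 23.3, 22.2, 21.4 and 16.3 on the contralateral side.

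The geometric mean was 9.44 IRS1 counts per IRS2 count in cumulus and 19.98 in granulosa cells (n = 8 each). The difference of the log2 ratio was -1.08 ± 0.30 SE, or 2.12-fold, with an exact two-sided permutation p of 0.00264 (adjusted p = 0.00793 over 3 ratio tests), where the smallest p that 8 against 8 allows is 1.55e-04. All 8 cumulus libraries lay below the granulosa median of 21.7. The ranges overlapped only through ipsilateral granulosa libraries 2 and 4, which lay below the highest cumulus values. Without the 3 libraries with oocyte transcripts the difference was -1.17 (exact permutation p = 0.00932, adjusted p = 0.0280). Without the 3 granulosa libraries with MUC16, of which ipsilateral library 1 had the highest ratio of all, it was -0.79 (exact permutation p = 0.0287) and did not pass once adjusted over the 3 ratio tests (adjusted p = 0.0862). The ratio is the direct test of whether IRS1 and IRS2 differ alike between the cell types, and it passed with all libraries and not without those with MUC16, whose part in it was not tested.

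**Figure D3:**
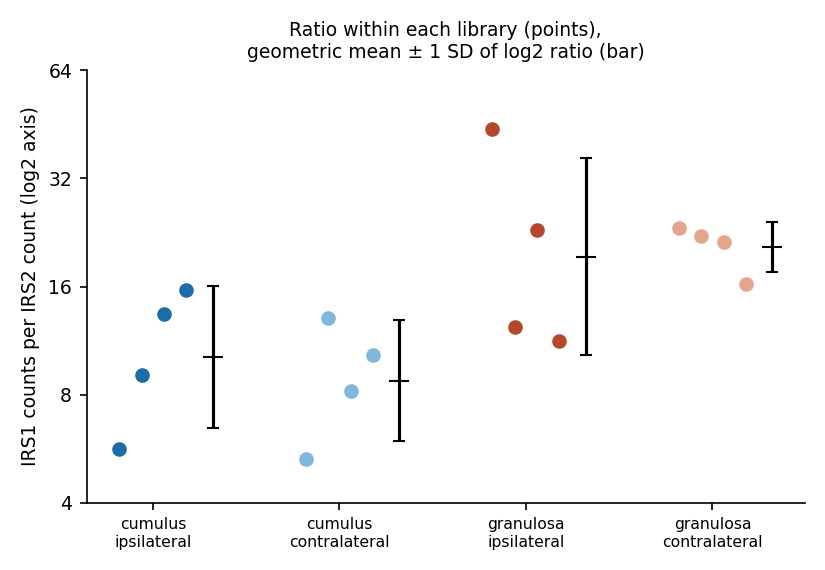
IRS1 counts per IRS2 count within each library on a log2 axis, by group; points are libraries 1 to 4 from left to right, and the bar is the geometric mean ± 1 SD of the log2 ratio (n = 4). Cumulus libraries lie between 5.30 and 15.6 and granulosa libraries between 11.3 and 43.9.

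The side of the corpus luteum, the study's own question, was compared within each cell type. In cumulus cells IRS1 stood at 33.6 ± 2.61 CPM ipsilaterally and 32.7 ± 7.23 CPM contralaterally (SD over 4 pools). The log2 fold change was 0.04 ± 0.16 SE (edgeR adjusted p = 0.957), and its 95% interval ran from -0.31 to 0.38. IRS2 stood at 3.52 ± 1.65 against 3.81 ± 1.24 CPM, with -0.12 ± 0.37 (edgeR adjusted p = 0.931, interval -0.94 to 0.69). Without contralateral libraries 2 and 4, which hold oocyte transcripts, 2 contralateral pools are left, and IRS2 had -0.45 (edgeR adjusted p = 0.669) and IRS1 0.04. In this comparison 0% of 16323 entries were called by edgeR, 1791 had an unadjusted p under 0.05, and DESeq2 called 120, neither IRS1 (adjusted p = 0.977) nor IRS2 (adjusted p = 0.963) being among them.

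In granulosa cells IRS1 stood at 62.1 ± 10.1 CPM ipsilaterally and 55.0 ± 7.49 CPM contralaterally, with a log2 fold change of 0.18 ± 0.15 SE (edgeR adjusted p = 0.9996, interval -0.17 to 0.52). IRS2 stood at 3.47 ± 1.65 against 2.65 ± 0.493 CPM, with 0.38 ± 0.42 (edgeR adjusted p = 0.9996, interval -0.55 to 1.31). Of 16411 entries 0% were called, 579 had an unadjusted p under 0.05, and DESeq2 called 1. The ipsilateral granulosa libraries with MUC16, 1 and 3, held the 2 highest IRS1 values of the group, and without the 3 granulosa libraries with MUC16, which leaves 2 ipsilateral and 3 contralateral ones, the IRS1 value was -0.05 and that of IRS2 0.74 (edgeR adjusted p = 0.771). What part the cells that carry MUC16 have in either was not tested.

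The side effects of the 2 cell types were also set against each other. Cumulus minus granulosa, the difference was -0.13 ± 0.23 SE for IRS1 (edgeR adjusted p = 0.932, interval -0.61 to 0.34) and -0.50 ± 0.58 for IRS2 (edgeR adjusted p = 0.875, interval -1.73 to 0.72). Without the libraries with MUC16 the difference was 0.08 for IRS1 and -0.87 for IRS2 (edgeR adjusted p = 0.601 for the latter), and without those with oocyte transcripts -0.11 and -0.78. Of 18038 entries 0% were called, 1358 had an unadjusted p under 0.05, and DESeq2 called 1. The IRS1 to IRS2 ratio differed between sides by 0.22 ± 0.43 SE in cumulus cells (log2, exact permutation p = 0.571, adjusted p = 0.857) and by -0.09 ± 0.47 in granulosa cells (exact permutation p = 0.914, adjusted p = 0.914), where the smallest p that 4 against 4 allows is 0.0286. In cumulus cells the ratio differed by 0.63 without the libraries with oocyte transcripts (exact permutation p = 0.267), and in granulosa cells by -0.78 without those with MUC16 (exact permutation p = 0.200).

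Ordered by mean level, IRS1 was highest in ipsilateral granulosa cells, followed by contralateral granulosa, ipsilateral cumulus and contralateral cumulus cells. The first neighbours in this order overlapped (exact permutation p = 0.343 on log2 CPM), as did the last (exact permutation p = 0.686). The middle neighbours, contralateral granulosa and ipsilateral cumulus cells, did not overlap and differed by 0.70 on the log2 scale, with the smallest p of 0.0286 that an exact permutation test allows here (adjusted p = 0.0857 over 12 pairs of groups). For IRS2 the order was contralateral cumulus, ipsilateral cumulus, ipsilateral granulosa and contralateral granulosa cells. Its neighbours differed by 0.15, 0.05 and 0.25 on the log2 scale, less than the spread within the groups (exact permutation p = 0.686, 0.943 and 0.571).

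Within a cell type the 2 genes showed no detectable relation across pools. Over the 8 cumulus libraries, log2 CPM of IRS1 and IRS2 had a Pearson r of 0.101 (exact permutation p = 0.814) and a Spearman rho of 0.333 (exact permutation p = 0.428). Over the 8 granulosa libraries r was -0.0808 (exact permutation p = 0.847) and rho -0.167 (exact permutation p = 0.703), and adjusted over the 2 relations the p of r was 0.847 in both. Without the 2 libraries farthest from the median of IRS1, r was 0.323 in cumulus and 0.362 in granulosa cells (n = 6). No r was taken over all 16 libraries, since the cell types form separate groups on IRS1.

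Other genes with a like pattern were looked for among 810 named entries, by Pearson correlation of log2 CPM over all 16 libraries, as a description. The libraries share the split by cell type, and depth differs between them. Most like IRS1 were SEPT9, a septin (r = 0.921), the threonyl-tRNA synthetase gene TARS (TARS1, 0.919), LOC534742 (SLC25A24, 0.916), a mitochondrial carrier, and the RING-CH ubiquitin ligase genes MARCH11 (0.915) and MARCH3 (MARCHF3, 0.913). All 5 were lower in cumulus cells. IRS1 splits the libraries by cell type, so choosing entries by their correlation with it favours this direction. TARS had a log2 fold change of -0.76 ± 0.06 SE, close in size to that of IRS1, while SEPT9 had -2.41 ± 0.13. In all, 47 entries without a name were more like IRS1 than SEPT9 was.

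Most like IRS2 was U2SURP, which encodes a protein associated with the U2 snRNP of the spliceosome (r = 0.805), and none of the 18036 entries compared, named or not, lay closer. U2SURP had means of 111 ± 9.81 CPM over cumulus and 104 ± 12.8 CPM over granulosa libraries. It was highest in ipsilateral cumulus library 1, at 129.9 CPM, and lowest in ipsilateral granulosa library 1, at 87.2 CPM, the same libraries as for IRS2. Since U2SURP was chosen from 18036 entries for its likeness to IRS2 in these libraries, the shared extremes are no further evidence. ULBP3 (0.728), a ligand of the NKG2D receptor, ZNF280C (0.727), a zinc-finger gene, LOC530348 (CSPG4B, 0.674) and the oncostatin M receptor gene OSMR (0.662) followed.

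**Figure D4:**
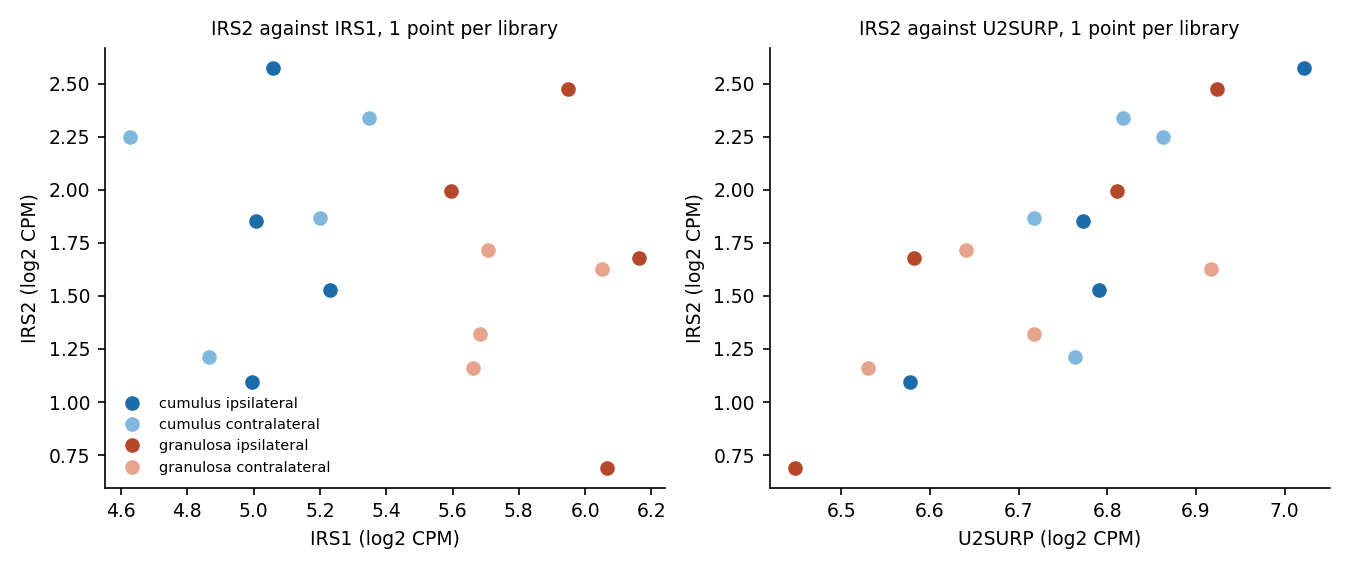
IRS2 (vertical axes, log2 CPM) against IRS1 (left) and against U2SURP (right), 1 point per library, coloured by group. IRS1 splits the libraries by cell type with r of 0.101 inside cumulus and -0.0808 inside granulosa cells. IRS2 and U2SURP, which was chosen for its correlation with IRS2, rise together across the groups (r = 0.805 over 16 libraries).

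With the 4 group means taken out, which leaves the variation between pools of a group, the named entries most like IRS1 were RIIAD1 (r = 0.714), TTLL11 (0.702), a tubulin glutamylase, NATD1 (0.683), TAF7 (0.622), a subunit of the general transcription factor TFIID, and ZADH2 (PTGR3, 0.605). No entry of the first IRS1 set is in this one. In all, 53 entries were more like IRS1 than RIIAD1 was. For IRS2 the set was ULBP3 (0.830), U2SURP (0.813), ZNF280C (0.780), FAM240A (0.772) and CCDC84 (CENATAC, 0.756), which shares 3 entries with the first IRS2 set. Of all entries compared, 11 were more like IRS2 than ULBP3 was, and 16 more than U2SURP. Some of the named entries had low levels, with cumulus means of 1.721 CPM for RIIAD1, 1.215 for NATD1 and 0.664 for FAM240A. Both IRS2 sets come from the same 16 libraries. The group means of IRS2 differ little, so taking them out changes its values little, and the shared entries are not a second test.

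Of 161 symbols listed for the insulin and IGF pathway, 3 were found by name, and no ligand, receptor, binding protein, kinase or inhibitor was among them, since most entries carry Ensembl IDs that the files do not pair with names. Besides the 2 adaptors this left G6PC, the gene of the glucose-6-phosphatase catalytic subunit and a target that insulin represses in liver. G6PC had 0 counts in all 16 libraries, which allows up to 0.137 CPM at the largest library total and 0.298 CPM at the smallest.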

How the data were processed

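Per the labels' protocols, DNase-treated column RNA was turned into SMART-Seq HT cDNA and Nextera XT libraries, which were read from one end over 75 bp. These kits do not mark strand. FastQC, Trimmomatic, STAR and DESeq2 are named in the submitters' processing notes, and the program that counted reads, the annotation and the build are not stated there or in the labels. The authors deposited raw counts per gene entry, without normalization. Columns carry the sample titles and were assigned by them. The reference (RefSeq genes of ARS-UCD2.0) was used for names and gene order only. No entry repeated the counts of IRS1 or IRS2 within 2% or 2 counts. In the reference IRS2 overlaps no other gene, and IRS1 overlaps only the miRNA gene MIR12053, which has no row in the table.

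Counts were tested across all entries with edgeR 4.0.16 in R 4.3.3 (filterByExpr with minimum count 10 and minimum total 15, TMM, robust quasi-likelihood F-test), with Benjamini-Hochberg adjustment over all entries tested and a threshold of 0.05. Comparisons of 2 groups used the 8 libraries of those groups, and the others all 16 with 4 group means. Standard errors were taken as |log2 fold change| over the root of the F statistic, and 95% intervals use the test's degrees of freedom. CPM uses TMM factors over all 16 libraries, and log2 CPM a prior count of 2. Exact permutation tests were two-sided and enumerated all regroupings. The scripts were checked on simulated counts. Replicate pairs had a chi-square per gene of 11.9 to 72.3, above the value near 1 of a library sequenced again. Whether pools of 2 groups share animals is not in the labels. All tests treated the pools as independent, which does not hold if groups share animals. The p values of group comparisons set a difference against the spread between pools. The alternatives were DESeq2 1.42.0, limma-voom (limma 3.58.1), RLE factors, no filter, exact repeats left out, all 16 libraries in the fit and each library left out in turn. Leaving out the libraries with oocyte transcripts or MUC16 at 5 CPM or more was added after seeing the data. The genes, lists and tests were chosen with earlier results of these data known. Named are IRS1 and IRS2, the list members found by name, and the 5 named entries most correlated with each gene, with and without the group means.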

Additional observations from a re-analysis of the deposited data

Results flagged for a closer look

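IRS1 in contralateral granulosa library 2, at 66.2 CPM, stood apart from the other 3 libraries of its group, which held 50.5, 51.3 and 52.1 CPM. Its gap to the next library was 0.897 of the group's range, above Dixon's 95% critical value for 4 libraries. It was the only such value among 12 sets of 4 libraries (IRS1, IRS2 and their ratio in 4 groups), and chance gives about 1 in 20. Without this library the side difference of IRS1 in granulosa cells was 0.27 on the log2 scale (edgeR adjusted p = 0.9999), against 0.18 with it.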

How the results depend on the processing

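The difference of IRS1 between cell types kept its direction and passed under all 23 alternatives over both sides (log2 fold change -0.88 to -0.76 when each library was left out), all 15 ipsilaterally (-0.998 to -0.82) and all 16 contralaterally (-0.87 to -0.62). The ratio of IRS1 to IRS2 between cell types passed in 18 of 19 (-1.20 to -0.92 when each library was left out, exact permutation p adjusted over the ratio tests from 0.00466 to 0.0172), the exception being -0.79 without the libraries with MUC16 (exact permutation, adjusted p = 0.0862). IRS2 passed in no comparison under any alternative, nor did either gene between sides. The direction of values that did not pass turned as follows, and the cause was not tested. Ipsilaterally IRS2 had -0.00020 by DESeq2, -0.072 by limma-voom and -0.42 without the libraries with MUC16, and -0.35 to 0.30 when each library was left out. Over both sides it had -0.0023 without the libraries with MUC16. Between sides in cumulus cells IRS1 ran from -0.079 to 0.16, IRS2 from -0.48 to 0.075 and the ratio from -0.024 to 0.50 when each library was left out, and in granulosa cells the ratio ran from -0.48 to 0.17. Without the libraries with MUC16, IRS1 had -0.045 between sides in granulosa cells and 0.077 for the difference of side effects. Counts of called entries were 0 by edgeR for the sides in cumulus cells, in granulosa cells and for their difference, and 120, 1 and 1 by DESeq2. They were 30 in cumulus cells without the libraries with oocyte transcripts and 10 for the difference without those with MUC16. By Spearman in place of Pearson correlation, 3 of the 5 entries most like IRS1 were shared and 4 of the 5 most like IRS2, and with group means taken out 3 and 5. No paired analysis was possible because the labels give no replicate number or animal that groups share. IRS2 rests on 20 to 121 counts per library.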

Other observations

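The entries next to the 2 genes were followed for their position and not for their values. LOC101902260, a long non-coding RNA gene that is the nearest neighbour of IRS1 on one side in the RefSeq order, had a mean of 1.29 ± 0.432 CPM over the cumulus and 1.33 ± 0.806 CPM over the granulosa libraries (SD, n = 8 for either). Its log2 fold change was 0.06 ± 0.36 SE (edgeR adjusted p = 0.899). On the other side of IRS1 the nearest gene found by name was COL4A4, a collagen chain of basement membranes, which lies beyond RHBDD1. COL4A4 was higher in cumulus cells (log2 fold change 1.25 ± 0.12 SE, edgeR adjusted p = 2.86e-07), the opposite direction to IRS1. It lay at 344.8 to 479 CPM in cumulus and 133 to 257 CPM in granulosa libraries, without overlap. Such a call is common, since 5398 of 18038 entries were called higher in cumulus cells, and entries without overlap were not counted. LOC101905776, a long non-coding RNA gene beside IRS2, had 8 counts in all, in 2 of 16 libraries.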
